A study of Homo sapiens with 3 samples.

Results

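FOXA2 peaks were described around 9 mucin, trefoil factor and AGR genes. The genes were the secreted mucins MUC2, MUC5AC and MUC5B, the membrane mucin MUC13, and the trefoil factors TFF1, TFF2 and TFF3. The protein disulphide isomerase relatives AGR2 and AGR3 completed the set. Because neighbouring genes share their surroundings, the 9 genes were covered by 4 intervals of hg19, each a gene or gene cluster with about 50 kb on either side. These were chromosome 21 from 43681 to 43837 kb for TFF3, TFF2 and TFF1, chromosome 7 from 16781 to 16972 kb for AGR2 and AGR3, chromosome 3 from 124574 to 124704 kb for MUC13, and chromosome 11 from 962 to 1334 kb for MUC2, MUC5AC and MUC5B. A peak belonged to an interval when its midpoint lay inside it. The 4 intervals, 849 kb in all, held 53 of the 63949 peaks of replicate 1 and 24 of the 26907 peaks of replicate 2.

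The peaks come from chromatin immunoprecipitation and sequencing (ChIP-seq) of FOXA2 in Caco2, an established human colorectal adenocarcinoma line often taken to stand for the lining of the gut. The labels name 2 FOXA2 immunoprecipitations, grown in low glucose medium with serum and without any stated treatment or genetic change, and 1 input library made without antibody, which entered through the authors' peak calls. Replicate 1 held 26183147 tags and replicate 2 held 15756702, and nothing states that they came from separate cultures, so their spread may be technical. A peak's score is the authors' own value: the tags in the peak, brought to a library size of 10000000 and rounded, or normalised tags for short. Each unit of 1 stands for 2.62 tags in replicate 1 and 1.58 in replicate 2. Sites are called shared where the peaks of both replicates have at least 1 bp in common, and their replicate 1 positions are given. With a single cell line and condition there is no contrast to test, so counts and scores are described beside those of the whole lists. The cell type could not be checked against marker genes, since peak lists carry no expression.

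FOXA2 is a forkhead transcription factor that can bind its sites in compacted chromatin, and it acts in many tissues that derive from endoderm, the stomach and intestine among them. Gel-forming mucins are very large glycoproteins that mucous and goblet cells release and that link into polymers through disulphide bonds. MUC2 is the main mucin of the intestinal gel, MUC5AC that of the gastric surface and of airway goblet cells, and MUC5B that of airway and salivary glands. MUC13 stays in the apical membrane of intestinal cells. Trefoil factors are small secreted peptides that are stored with mucins and assist epithelial repair. TFF1 and TFF2 are mainly gastric, and TFF3 is made by intestinal goblet cells. AGR2 resides in the endoplasmic reticulum and in mice is required for MUC2 production, and AGR3 is its closest relative.

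The start regions of 4 members, from 250 bases before the gene start to 50 bases after it, are shown because they are where a promoter-bound factor would sit. They come from RefSeq on GRCh38.p14, a different build from the peaks, so no peak was placed on them. Of the 9 members, MUC2, MUC13, AGR2 and AGR3 were matched in the table, and MUC5AC, MUC5B, TFF1, TFF2 and TFF3 were not. Capitals mark TGTTT, the short core of the forkhead motif, or AAACA, its other strand.
AGR2: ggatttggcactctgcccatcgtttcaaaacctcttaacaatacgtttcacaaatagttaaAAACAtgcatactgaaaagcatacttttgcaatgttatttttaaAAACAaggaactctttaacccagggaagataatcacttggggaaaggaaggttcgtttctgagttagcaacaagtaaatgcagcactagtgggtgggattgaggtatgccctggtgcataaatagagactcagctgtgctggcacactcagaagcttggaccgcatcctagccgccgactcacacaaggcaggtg
AGR3: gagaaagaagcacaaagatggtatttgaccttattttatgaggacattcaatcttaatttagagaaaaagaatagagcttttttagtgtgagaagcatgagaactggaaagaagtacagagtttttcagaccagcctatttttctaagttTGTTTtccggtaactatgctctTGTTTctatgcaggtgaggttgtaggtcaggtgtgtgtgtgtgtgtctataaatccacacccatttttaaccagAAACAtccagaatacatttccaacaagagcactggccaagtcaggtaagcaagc
MUC13: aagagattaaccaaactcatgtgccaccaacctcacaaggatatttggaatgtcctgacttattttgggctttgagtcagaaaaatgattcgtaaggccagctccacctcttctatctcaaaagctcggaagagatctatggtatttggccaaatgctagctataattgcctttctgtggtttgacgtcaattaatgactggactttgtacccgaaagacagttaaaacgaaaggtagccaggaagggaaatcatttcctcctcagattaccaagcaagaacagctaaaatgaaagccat
MUC2: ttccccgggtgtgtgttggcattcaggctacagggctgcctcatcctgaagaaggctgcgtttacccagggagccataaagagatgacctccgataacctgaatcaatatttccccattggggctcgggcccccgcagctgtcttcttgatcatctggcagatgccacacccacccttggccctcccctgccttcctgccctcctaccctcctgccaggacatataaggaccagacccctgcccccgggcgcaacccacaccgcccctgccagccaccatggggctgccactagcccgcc
The AGR2 region is chr7:16804950-16805249 and that of AGR3 is chr7:16881934-16882233, both on the minus strand. The MUC13 region is chr3:124934702-124935001 on the minus strand, and the MUC2 region is chr11:1074624-1074923 on the plus strand.

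None of the 4 start regions held a full forkhead motif, searched on either strand as the letters TGTTTAC, then as TGTTTGC, next as TATTTAC and last as TATTTGC. At least 1 of these letter strings was present in 12.1% of 35116 start regions of the same length. The short core TGTTT, which is the beginning of the first pair of these motifs, was searched after the sequences had been seen and occurred in 44.4% of all start regions. AGR3 held it 3 times, beginning 100 and 78 bases before the start on the gene's strand and 4 bases before it on the other. AGR2 held it at 189 and 145 bases before the start, both on the other strand, while MUC13 and MUC2 held none. The AGR3 region also held the letters TATAAA, beginning 31 bases before the start. These are matches of letters, and their lack in a window says nothing of the factor.

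Shared FOXA2 sites were found in all 4 intervals, but in very unequal number. The trefoil factor interval held 9 in 156 kb, the AGR2 and AGR3 interval 9 in 191 kb, the MUC13 interval 4 in 130 kb, and the mucin cluster interval 2 in 372 kb. Per 100 kb this was 5.77, 4.71, 3.08 and 0.538 shared sites in that order, beside 0.861 over the 2828 Mb of the genome that held peaks. The trefoil factor interval was thus 6.70 times as densely occupied as the genome, the AGR2 and AGR3 interval 5.47 times and the MUC13 interval 3.57 times, and the mucin cluster interval 0.625 times. In the longer list of replicate 1 alone the MUC13 multiple was 2.04, while replicate 2 alone gave 3.24. Without flanks MUC13 had 0 shared sites, so its multiple comes from the flanks alone. With flanks of doubled length the mucin cluster had 1.06 shared sites per 100 kb, above the genome's density. Without flanks it had 0.368, or 0.427 times the genome. Its place below the genome thus holds without flanks and with those of 50 kb, but not with doubled ones. The lengths count every base of an interval, and whether reads could be aligned throughout was not checked. Counting peaks of score 10 or more alone, the genome had 0.538 shared sites per 100 kb. At that limit AGR2 and AGR3 had 2.62 and the mucin cluster 0.269, or 4.87 and 0.500 times the genome. The trefoil factor interval had 5.13 and MUC13 2.31, or 9.54 and 4.29 times the genome.

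**Figure D1:**
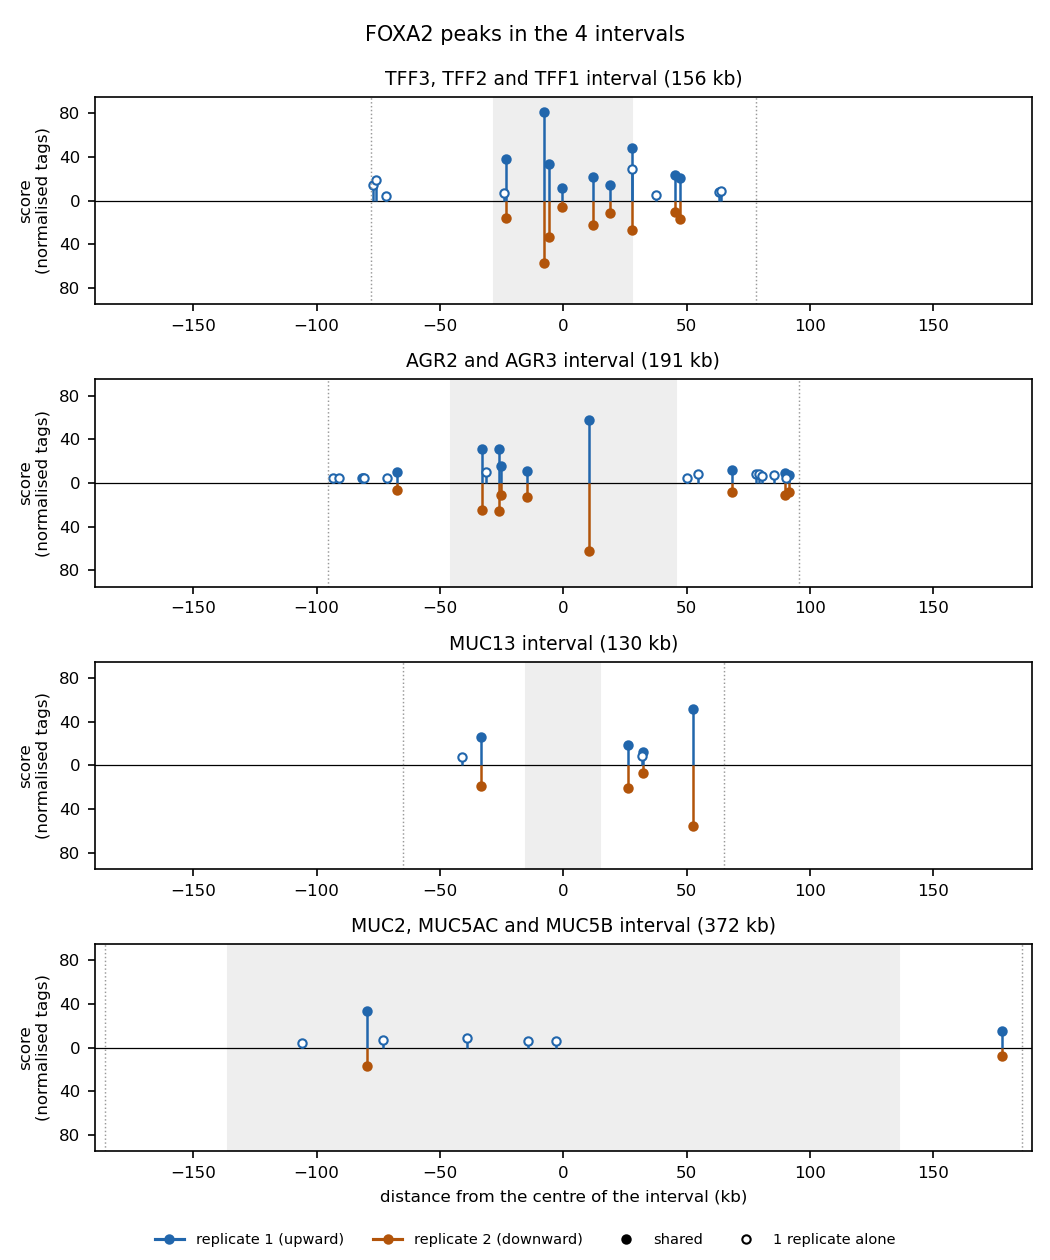
FOXA2 peaks by distance in kb from the centre of each interval, with the score in normalised tags upward for replicate 1 and downward for replicate 2. Filled points are shared, open points were found in a single replicate, dotted lines are the ends of the interval, and grey is what remains without 50 kb on each side. The trefoil factor cluster carries 7 shared sites in grey, MUC13 none, and the mucin cluster 1.

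Windows of the same length gave a scale for these counts. The genome was cut into consecutive windows of 156 kb, and the 14154 of them that held a peak of either replicate had a median of 1 shared site. At least 9, the number in the trefoil factor interval, were found in 168 windows, or 1.19%. For AGR2 and AGR3, 240 of 12135 windows of 191 kb, or 1.98%, held at least 9. For MUC13, 1970 of 16143 windows of 130 kb, or 12.2%, held at least 4. The mucin cluster interval, with 2 shared sites, equalled the median of 7005 windows of 372 kb, 63.1% of which held as many or more. Windows are not independent of each other, so these shares describe the genome and are no test.

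**Figure D2:**
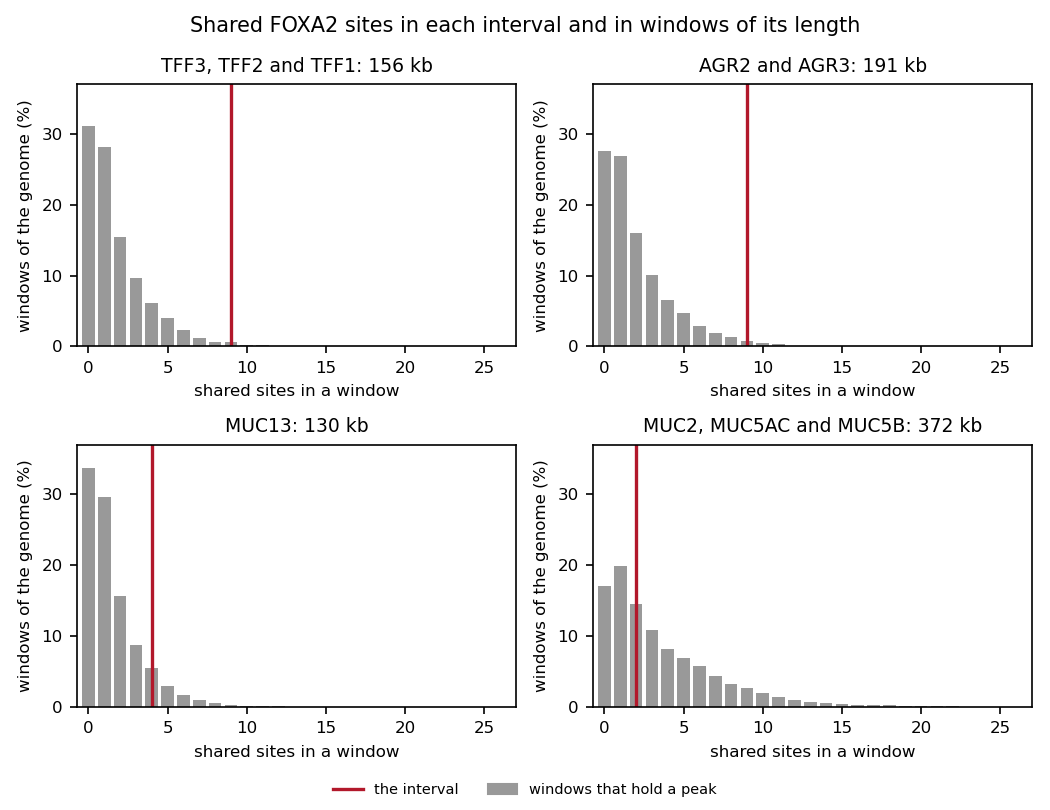
Percentage of genome windows (y) that hold a given number of shared FOXA2 sites (x), for windows as long as each interval; the red line marks the interval's own number. The lines for the trefoil factor interval and for AGR2 and AGR3 stand at 9, in the sparse upper tail, and the line for the mucin cluster stands at 2, the median.

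Replicate 1 called more peaks in the intervals than replicate 2, and most of its calls there had no partner. Of the 53 replicate 1 peaks in the intervals, 24 were shared, or 45.3% (95% Wilson interval 32.7% to 58.5%), beside 38.1% of all replicate 1 peaks, which lies inside that interval. All 24 replicate 2 peaks in the intervals had a replicate 1 partner (95% Wilson interval 86.2% to 100%), beside 90.5% of the whole replicate 2 list. These intervals cover counting error only, and the peaks of an interval share their surroundings. Between partner peaks the centres differed by 19 bp in the median and by 34 bp at most. By interval, 9 of 17 replicate 1 peaks were shared in the trefoil factor interval, 9 of 23 around AGR2 and AGR3, 4 of 6 around MUC13 and 2 of 7 in the mucin cluster.

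Whether a replicate 1 peak had a partner went with its score. Of the 14 peaks in the intervals that scored 20 or more, 13 were shared, or 92.9%, beside 94.6% of the 10494 such peaks in the list. At 10 to 19 it was 9 of 12, or 75%, beside 59.2%. Under 10 it was 2 of 27, or 7.41%, beside 14.0%. The Wilson interval of the members contained the share of the list in each class. The 29 peaks seen in replicate 1 alone scored from 4 to 29 with a median of 7. At the depth of replicate 2 a missing partner of a weak peak does not show that binding was absent.

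**Figure D3:**
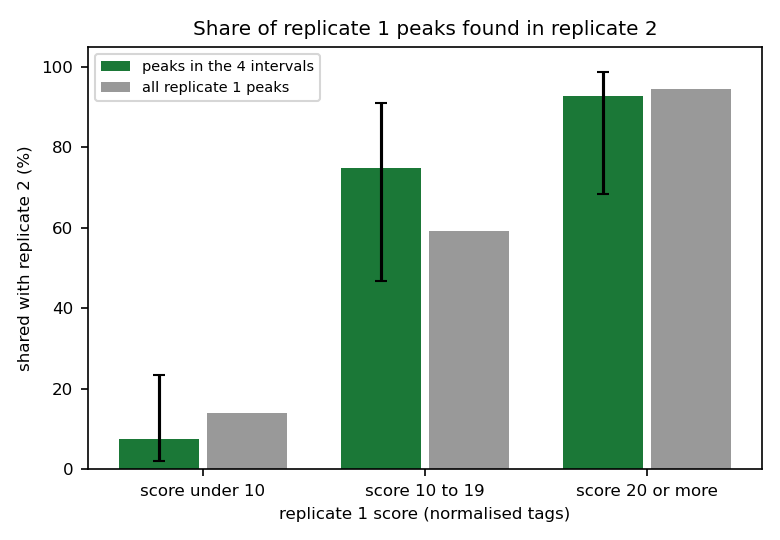
Percentage of replicate 1 peaks shared with replicate 2 (y) by replicate 1 score (x), for the 53 peaks of the intervals (green, with 95% Wilson intervals) and for all 63949 peaks (grey). Both go up with the score, and each grey bar ends within the green bar's interval.

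Mean scores of the shared sites in the intervals ran from 7.5 to 69 normalised tags, the lowest above 8.39% and the highest above 95.8% of all shared sites. The median of the mean score was 19.5 normalised tags over the 24 sites (interquartile range 11.1 to 28.1), beside 14.5 (9.5 to 24.5) over all 24345 shared sites. Of the 24, 14 lay above the median of all shared sites and 3 in the top 10%, which began above a mean score of 44. Those 3 were the strongest sites of the trefoil factor, the AGR2 and AGR3 and the MUC13 intervals, and the mucin cluster held none. Another shared site lay within 10 kb of 15 of the 24, or 62.5%, beside 39.0% of all shared sites. This was so for 8 of 9 trefoil factor sites, 5 of 9 AGR2 and AGR3 sites, 2 of 4 MUC13 sites and neither of the mucin cluster sites. Sites in a densely occupied interval have closer neighbours, so these shares are not separate from the densities given above.

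Along chromosome 21 the RefSeq order of genes is ABCG1, TFF3, TFF2, TFF1 and TMPRSS3. The trefoil genes are read from the TFF1 end towards TFF3, a direction taken from general knowledge and not from RefSeq here. Of the 9 shared sites of the interval, 7 lay within the 56 kb that remain without the flanks, a density of 12.5 per 100 kb and 14.5 times that of the genome. The other 2 lay in the flank beyond TFF1, and the flank beyond TFF3 had none, with 3 peaks in replicate 1 alone. Because no annotation of the peaks' build was used here, sites are placed by the ends of the intervals, which are given in whole kb, and not by exons, introns or single genes.

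The strongest site of all 4 intervals was in the trefoil factor cluster, on chromosome 21 at 43751133 to 43751255. It scored 81 in replicate 1 and 57 in replicate 2, a mean of 69 ± 17.0 (SD, n = 2), above 95.8% of all shared sites. It ranked 14 among the 302 shared sites of chromosome 21. A neighbour 2.0 kb away, at 43753129 to 43753251, scored 34 and 33, or 33.5 ± 0.707 (SD, n = 2), so the replicates were nearly equal there. Together with a weaker site of mean score 9 these formed a run of 3 shared sites in 7.22 kb. The run lies in the middle of the cluster, between 20.2 and 27.3 kb from its TFF3 end.

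At the TFF1 end of the cluster replicate 1 had a pair of peaks whose midpoints were 254 bp apart. The outer of them, at 43786893 to 43787015, was shared and scored 48 in replicate 1 and 27 in replicate 2, or 37.5 ± 14.8 (SD, n = 2). It lay at the TFF1 end of the cluster as the interval defines it. That end is given in whole kb with a flank of about 50 kb. Which peak of the pair lies nearer the start of TFF1 was therefore not determined. The inner peak, at 43786639 to 43786761, scored 29 and was the strongest peak of any of the 4 intervals without a partner. Replicate 2 peaks closer than 300 bp could not be called separately, per the file headers, and the pair is closer than that; what replicate 2 held at the inner position was not tested. With midpoints allowed to differ by 500 bp it was matched to the same replicate 2 peak.

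Towards TFF3, the site at 43735512 to 43735634 lay 4.6 kb inside that end of the cluster. It scored 38 and 16 normalised tags in replicates 1 and 2, or 27 ± 15.6 (SD, n = 2). A weak replicate 1 peak of score 7 stood 554 bp from it. Between the central run and the TFF1 end, the site at 43771090 to 43771212 scored 22 in both replicates, and the site at 43778034 to 43778156 scored 14 and 11, or 12.5 ± 2.12 (SD, n = 2). Beyond TFF1, on the side of TMPRSS3, the sites at 43804294 to 43804416 (24 and 10, mean 17.0 ± 9.90) and at 43806282 to 43806404 (21 and 17, mean 19 ± 2.83) lay 17.4 and 19.3 kb outside the cluster. The trefoil sites were thus spread over the whole cluster and were of uneven strength, with the central pair and the TFF1 end scoring highest.

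Around AGR2 and AGR3, 5 of the 9 shared sites lay in the 91 kb without the flanks, or 5.49 per 100 kb. The strongest, on chromosome 7 at 16886973 to 16887095, scored 58 in replicate 1 and 62 in replicate 2, or 60.0 ± 2.83 (SD, n = 2). It lay above 94.4% of all shared sites and ranked 70 among the 1328 of chromosome 7. The nearest other shared site was 25.2 kb away. In the 91 kb it stands 56.0 kb from the AGR2 end and 35.0 kb from the AGR3 end, so it is on the AGR3 side of the middle.

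A run of 3 shared sites in 7.77 kb lay nearer the AGR2 end. Its first site, at 16843662 to 16843784 and 12.7 kb inside that end, scored 31 and 25, or 28.0 ± 4.24 (SD, n = 2). The site at 16850352 to 16850474 scored 31 and 26, or 28.5 ± 3.54, and its neighbour 959 bp away, at 16851311 to 16851433, scored 16 and 11, or 13.5 ± 3.54 (SD, n = 2). Inside this run, 1.28 kb from its first site, was the strongest peak of the interval without a partner, at 16844939 to 16845061 with a score of 10. The site at 16861743 to 16861865 followed with 11 and 13, or 12 ± 1.41 (SD, n = 2).

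The flanks of AGR2 and AGR3 held many weak peaks. In them were 17 of the interval's 23 replicate 1 peaks, none scoring above 12, and 4 of its shared sites, with mean scores from 7.5 to 10. The highest of these, at 16945011 to 16945133 (12 and 8) and at 16966224 to 16966346 (9 and 11), both had a mean of 10.0, with an SD of 2.83 at the one and 1.41 at the other (n = 2). The shared site at 16809012 to 16809134 scored 10 and 6, or 8.0 ± 2.83. On the AGR2 side the remaining 6 peaks all scored 5 in replicate 1 alone. The strong sites of this interval therefore lay between its outer gene ends, and the flanking ones scored low in both lists.

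MUC13 showed another arrangement, with no peak of either replicate in the 30 kb left without the flanks. All 4 shared sites lay outside it, 3 of them beyond the high-coordinate end. There MUC13, a minus-strand gene in RefSeq, begins, and HEG1 is the next protein-coding gene. The strongest, on chromosome 3 at 124691490 to 124691612, scored 52 in replicate 1 and 56 in replicate 2, or 54.0 ± 2.83 (SD, n = 2), above 93.1% of all shared sites. It lay 37.6 kb beyond that end. Closer to the gene, 11.3 kb beyond it, the site at 124665282 to 124665404 scored 19 and 21, or 20 ± 1.41 (SD, n = 2).

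The weakest upstream site, at 124671214 to 124671336 and 17.3 kb beyond the end, scored 12 and 7, or 9.5 ± 3.54 (SD, n = 2). The peak at 124670790 to 124670912, 424 bp from it, scored 9 in replicate 1 alone. On the other side, towards ITGB5, the site at 124605478 to 124605600 scored 26 and 19, or 22.5 ± 4.95 (SD, n = 2), 18.5 kb from the low-coordinate end. The distance of a site from MUC13 does not say which gene it acts on.

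The mucin cluster, the longest interval, was the least occupied. RefSeq orders the genes here as AP2A2, MUC6, MUC2, MUC5AC, MUC5B and TOLLIP. A single shared site lay within the 272 kb without the flanks, on chromosome 11 at 1068227 to 1068349. It scored 34 in replicate 1 and 17 in replicate 2, or 25.5 ± 12 (SD, n = 2), above 75.8% of all shared sites. It lay 56.3 kb from the low-coordinate end, the MUC6 side, and 215.7 kb from the end towards TOLLIP. That low-coordinate end, at 1012 kb, was not placed against MUC6 or MUC2 in the build of the peaks. Whether the site lies within or outside the stretch from MUC2 to MUC5B was therefore not determined. The other shared site, at 1325815 to 1325937 in the flank on the TOLLIP side, scored 15 and 8, or 11.5 ± 4.95 (SD, n = 2), and lay 258 kb away.

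The remaining 5 peaks of the mucin cluster were found in replicate 1 alone and scored from 4 to 9. The strongest of them was at 1108826 to 1108948 with a score of 9. All 5 lay in the lower part of the interval. A stretch of 181 kb between neighbouring replicate 1 peaks, reaching to the site on the TOLLIP side, held no peak in either list. Whether reads could be aligned along all of that stretch was not checked, so its lack of peaks is not read as lack of binding. Summed over all peaks, the interval carried 21.8 normalised tags per 100 kb in replicate 1, beside 31.0 over the genome, and 6.72 in replicate 2, beside 18.3. For comparison, the trefoil factor interval carried 249 per 100 kb in replicate 1 and 128 in replicate 2. Weak binding under the calling limits cannot be seen in these lists.

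Within the intervals, as in the genome, replicate 1 tended to give the higher score. It scored higher at 17 of the 24 shared sites, replicate 2 at 6, and 1 was tied. Over all shared sites of the genome replicate 1 was higher at 63.7%. Over the 24 sites the replicate 1 score was in the median 1.32 times that of replicate 2, beside 1.20 times over all. By interval this median was 1.94 for the 2 mucin cluster sites, 1.42 in the trefoil factor interval, 1.19 around AGR2 and AGR3, and 1.15 around MUC13. Replicate 2 was higher at none of the mucin cluster and trefoil factor sites, at 4 of 9 around AGR2 and AGR3 and at 2 of 4 around MUC13. The peaks of replicate 1 span 123 bp and those of replicate 2 span 151 bp, so the wider windows are those of replicate 2. The headers put the approximate immunoprecipitation efficiency at 8.72% in replicate 1 and 5.16% in replicate 2. What part window width or efficiency has in the ratios was not tested.

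At 5 of the 24 shared sites the scores differed by more than counting error, in that their 95% Poisson intervals did not meet. This was so for 14.7% of all 24345 shared sites, 12.9% with replicate 1 higher and 1.74% with replicate 2 higher. With so few sites, 5 of 24 is not read as a difference from the genome. All 5 were higher in replicate 1, and 4 of them were in the trefoil factor interval. The strongest trefoil site had 81 (70.4 to 92.6) in replicate 1 and 57 (45.9 to 70.2) in replicate 2. The site near TFF3 had 38 (30.7 to 46.0) and 16 (10.3 to 23.4), and the shared site at the TFF1 end had 48 (40.1 to 57.3) and 27 (19.7 to 36.8). The site beyond TFF1 at 43804294 had 24 (18.5 to 30.8) and 10 (5.8 to 16.5). The fifth was the site at 1068227 in the mucin cluster interval, with 34 (27.3 to 41.8) and 17 (11.3 to 24.9). The strongest AGR2 and AGR3 site, with 58 (49.2 to 68.0) and 62 (50.5 to 75.8), and the strongest MUC13 site, with 52 (43.6 to 61.4) and 56 (44.8 to 68.8), did not differ beyond it.

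**Figure D4:**
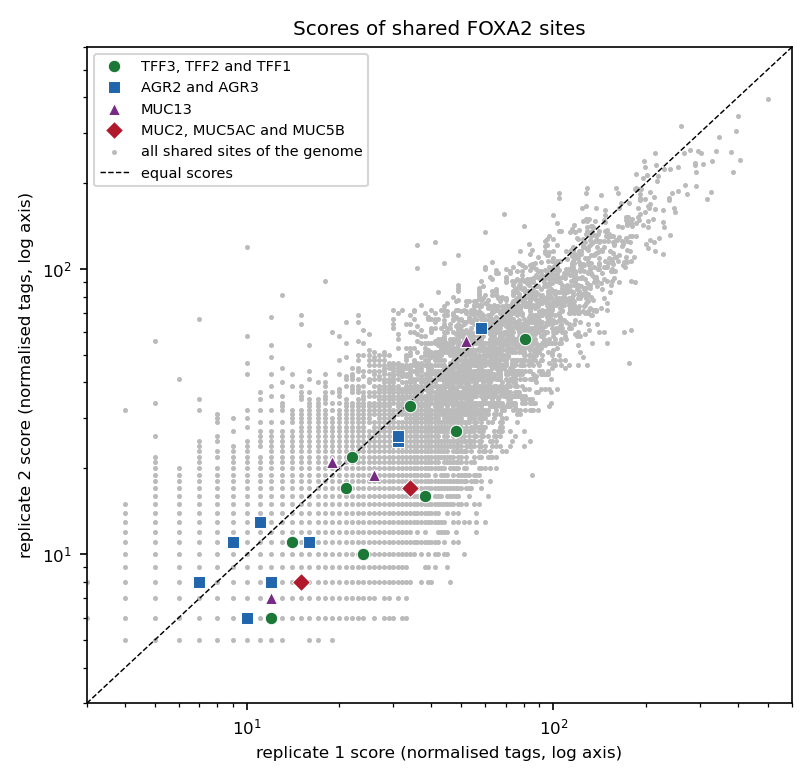
Replicate 2 score (y) against replicate 1 score (x) of shared sites in normalised tags, both on log axes, for the 24 sites of the intervals (coloured by interval) and all 24345 shared sites (grey). The trefoil factor sites lie on or below the line of equal scores, and the strongest AGR2 and AGR3 and MUC13 sites lie just above it.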

How the data were processed

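FOXA2 ChIP-seq peaks of 2 replicate immunoprecipitations in Caco2 cells were analysed. The alignment build was hg19 and the tools given are Bowtie 1.0.0 and HOMER 1.2, as stated in the submitters' processing notes. The authors called peaks with HOMER findPeaks in its factor style, in each replicate separately and against an input library, at a false discovery rate of 0.001, and kept those with 4 times the input's tags and 4 times the tags of the local region of 10000 bp, per the file headers. The score deposited by the authors is a rounded tag count scaled to 10000000 tags per library; its sum, scaled back, was 0.45% and 0.196% above the headers' tags in peaks of replicates 1 and 2.

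From these lists, peaks with midpoints in the 4 intervals were matched by an overlap of at least 1 bp (nearest midpoint if several). The code of this step was checked on simulated peaks, which does not test the choice of the matching rule. Genome densities use windows of 1 Mb on chromosomes 1 to 22 and X that hold a peak. Shares have 95% Wilson intervals. Scores have 95% exact Poisson intervals of the approximate tags. All cover counting error only, since tags without molecular identifiers are not independent molecules. No test was run, because the design has no contrast. Members, lists and the TGTTT search were chosen with earlier results of these data known. In each interval the text names up to 8 shared sites with the highest mean score and the highest peak found in 1 replicate alone. Coordinates are 1-based. Gene order and start regions are from RefSeq GRCh38.p14 and were not combined with hg19 positions. Python 3.11.15 was used with pandas 2.3.3, numpy 2.4.6, statsmodels 0.14.6 and scipy 1.17.1.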

Additional observations from a re-analysis of the deposited data

How the results depend on the processing

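The 24 shared sites stayed 24 with a reciprocal overlap of 50% or midpoints within 100 bp. With midpoints within 500 bp, 27 replicate 1 peaks had a partner. Replicate 2 had 24 peaks in the intervals, so some of the 27 were matched to the same replicate 2 peak. With peaks scoring at least 10 they were 17, and 65.4% of replicate 1 peaks in the intervals were shared instead of 45.3%. That limit lowered the density to 2.62 shared sites per 100 kb around AGR2 and AGR3 and to 0.269 in the mucin cluster. The genome's density fell to 0.538, so the trefoil factor interval stood at 9.54 times the genome and MUC13 at 4.29 times. Without the flanks 13 shared sites remained and 61.9% of replicate 1 peaks were shared. The density per 100 kb was then 12.5 in the trefoil factor cluster, 0.368 in the mucin cluster and 0 at MUC13. Doubled flanks gave 37 shared sites, and 1.06 per 100 kb in the mucin cluster, above the genome's 0.861. As a multiple of the genome, single replicates gave 4.82 to 6.07 for the trefoil factor interval, 4.96 to 5.33 for AGR2 and AGR3, 2.04 to 3.24 for MUC13 and 0.566 to 0.832 for the mucin cluster, and the median score of the shared sites was 16.5 to 21.5. The cause of these shifts was not tested, beyond the change in peaks or length that each setting makes. No paired analysis was possible because the FOXA2 libraries form a single group. Motifs in peak sequences, peak positions relative to genes and the comparison list of other mucin and goblet cell genes were not run, for lack of an hg19 sequence and annotation here.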
